A study of Rattus norvegicus with 8 samples.

Results

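Platelet-derived growth factors (PDGF) and vascular endothelial growth factors (VEGF) form one family of secreted, disulfide-linked dimers that signal through receptor tyrosine kinases. Here 10 genes of the family were followed in rat aortic smooth muscle cells: the PDGF ligands Pdgfa, Pdgfb, Pdgfc and Pdgfd, their receptors Pdgfra and Pdgfrb, the VEGF ligands Vegfa, Vegfb and Vegfc, and Flt1, a receptor for VEGF-A, VEGF-B and placenta growth factor. Members were found by RefSeq accession: 13 loci of the RNA table mapped to exactly 1 of these symbols, and the locus with the highest mean level stood for each gene. All 10 had such a locus, out of 14761 symbols with a usable locus in the table, and all 10 were expressed, meaning a level of at least 1 FPKM (fragments scaled to transcript length and to library size) in at least 1 library. That minimum was met by 8349 symbols.

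The cells were cultured primary vascular smooth muscle cells of Sprague-Dawley rats, taken from the thoracic aorta. The control group received no treatment, and the AngII group was kept overnight without fetal bovine serum and then given 0.1 uM angiotensin II (AngII), a vasoconstrictor peptide, for 3 h. Serum starvation is stated for the AngII group only, so in what follows AngII and starvation cannot be told apart from the labels. RNA-seq after removal of ribosomal RNA, and ChIP-seq of H3K4me3 (a histone mark of active promoters) and of H3K36me3 (a mark laid down along transcribed gene bodies), were done with 1 library per condition and assay. No difference below therefore has a replicate check, and no p-value is given.

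PDGF-A and PDGF-B are secreted ready to bind, whereas PDGF-C and PDGF-D carry a CUB domain that must be cleaved off by proteases first. PDGF-B binds both receptors, PDGF-A and PDGF-C mainly receptor alpha and PDGF-D mainly receptor beta. Smooth muscle cells are known as targets of PDGF-B, made by the endothelium and platelets, and as a source of VEGF-A. Flt1 is best known from endothelial cells, where it binds VEGF-A tightly and signals weakly.

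The 3 members that were higher after AngII, Flt1, Pdgfb and Pdgfa, are shown first by the 250 bases before their RefSeq starts, since these are the bases beside which H3K4me3 is usually found. Sequences are RefSeq's, from build GRCr8, written 5′ to 3′ on the gene's strand, and 9 of the 10 members were in that promoter table, Pdgfrb not among them. Capitals mark exact matches, on either strand, to TATAAA (the TATA box), GGGCGG (the GC box), TGANTCA (AP-1 site), TGACGTCA (cyclic AMP response element), GCGNGGGCG (Egr site) and ACGTG (core of the hypoxia response element). The lines give Flt1 at chr12:12333180-12333429 on the plus strand, Pdgfb at chr7:113438344-113438593 on the minus strand and Pdgfa at chr12:20759116-20759365 on the plus strand.
Flt1: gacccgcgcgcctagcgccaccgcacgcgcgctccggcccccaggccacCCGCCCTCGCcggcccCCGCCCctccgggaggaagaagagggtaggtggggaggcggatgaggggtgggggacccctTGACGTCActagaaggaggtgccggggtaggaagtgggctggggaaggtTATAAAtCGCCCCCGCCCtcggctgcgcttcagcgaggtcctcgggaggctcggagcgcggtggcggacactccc
Pdgfb: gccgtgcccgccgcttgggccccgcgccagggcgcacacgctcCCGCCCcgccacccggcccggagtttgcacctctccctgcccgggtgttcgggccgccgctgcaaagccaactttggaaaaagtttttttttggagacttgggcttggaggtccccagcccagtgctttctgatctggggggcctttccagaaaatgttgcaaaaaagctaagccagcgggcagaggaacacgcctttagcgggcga
Pdgfa: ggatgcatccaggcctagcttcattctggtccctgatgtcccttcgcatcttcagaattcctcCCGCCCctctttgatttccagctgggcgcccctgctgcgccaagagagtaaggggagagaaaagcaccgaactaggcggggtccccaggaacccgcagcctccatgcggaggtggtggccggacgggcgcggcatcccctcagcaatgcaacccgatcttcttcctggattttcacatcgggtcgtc

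The Flt1 bases held 1 TATAAA, whose first base lies at -75 from the start, and 1 TGACGTCA at -124. TATAAA occurred in 12.9% and TGACGTCA in 1.59% of the 33469 promoter windows of this length in the table. Flt1 also held 3 matches to GGGCGG and 2 to GCGNGGGCG, each of the latter overlapping 1 GGGCGG, against shares of 30.5% and 4.29% of all windows. Pdgfb and Pdgfa each held 1 GGGCGG and none of the other letters searched. The windows of Flt1, Pdgfb and Pdgfa contained 73.2%, 63.6% and 60.8% G and C, above the median of 51.2% over all windows. Windows of members that were not higher were also above it, with 73.2% in Vegfb, 72.4% in Vegfc, 61.6% in Pdgfd, 60.4% and 56.0% in the windows of Vegfa and 56.0% in Pdgfc, while Pdgfra had 47.2%. Among the other members, Vegfb held 4 matches to GGGCGG and 1 to GCGNGGGCG, 1 window of Vegfa held 3 to GGGCGG, Vegfc 2 and Pdgfd 1. TGANTCA was found in Pdgfra and ACGTG in Pdgfd, and the window of Pdgfc held none of these letters. Across all windows the shares were 6.34% for TGANTCA and 16.6% for ACGTG. A match to letters describes the sequence and not a bound site.

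Among the ligands of the PDGF receptors, Pdgfb and Pdgfa were higher after AngII and Pdgfc and Pdgfd had lower estimates. Pdgfb (chromosome 7, 118244384 to 118262021 in build rn4) stood at 2.28 FPKM in untreated cells, with deposited bounds of 1.04 to 3.51, and at 32.8 FPKM with AngII, with bounds of 19.1 to 46.6. The AngII library was thus high and the control library low, and the bounds did not overlap. The log2 ratio, here always log2((AngII FPKM + 1)/(control FPKM + 1)), was 3.37 with an SD of 0.40 implied by the bounds. The AngII lower bound was 5.45 times the control upper bound. These bounds lie 2 SD either side of an estimate and hold model error only, not the spread between cultures.

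Pdgfa (chromosome 12, 16151044 to 16172401) was already well expressed in control, at 39.4 FPKM (bounds 22.9 to 55.8), and stood at 105 FPKM with AngII (61.0 to 148). Its bounds were apart by a small margin, the AngII lower bound being 1.09 times the control upper bound, and its log2 ratio was 1.39 (SD 0.42). Pdgfd (chromosome 8, 3125520 to 3341300) stood at 32.7 FPKM in untreated cells and 19.9 FPKM with AngII. Its bounds of 18.3 to 47.2 and 10.6 to 29.1 overlapped, and the log2 ratio was -0.69. Pdgfc (chromosome 2, 172635731 to 172811004), at 7.27 and 4.44 FPKM, likewise had overlapping bounds and a log2 ratio of -0.60.

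**Figure D1:**
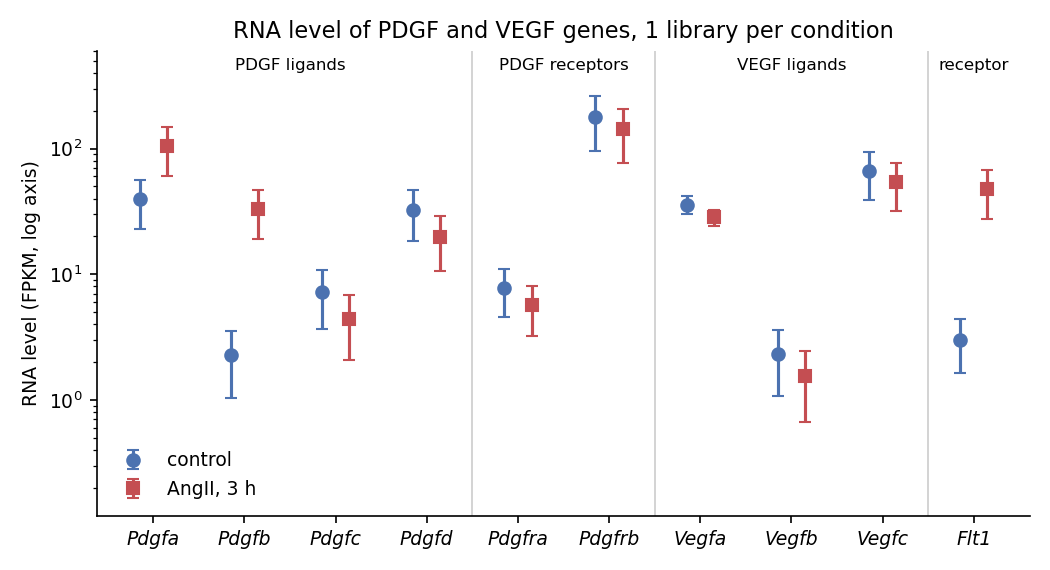
RNA level of each member in FPKM on a log axis, control (circles) and AngII (squares), with the deposited bounds as bars; 1 library per condition. Bars of control and AngII are apart for Pdgfa, Pdgfb and Flt1 and overlap for the other 7 members.

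FPKM is per length, so the levels of the ligand genes can be added. The 4 PDGF ligand genes summed to 81.6 FPKM in untreated cells and 162 FPKM with AngII. In control Pdgfa made up 48.2% and Pdgfd 40.1% of that sum, with Pdgfc at 8.90% and Pdgfb at 2.79%. After AngII Pdgfa made up 64.7% and Pdgfb 20.3%, ahead of Pdgfd at 12.3% and Pdgfc at 2.74%. The pair that needs no CUB removal, Pdgfa and Pdgfb, went from 41.6 to 138 FPKM, and the pair that does, Pdgfc and Pdgfd, from 40.0 to 24.3 FPKM. Within that last pair the Pdgfd share was 81.8% in control and 81.7% after AngII. Pdgfa RNA was 17.3 times as abundant as Pdgfb RNA in control and 3.19 times as abundant after AngII.

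**Figure D2:**
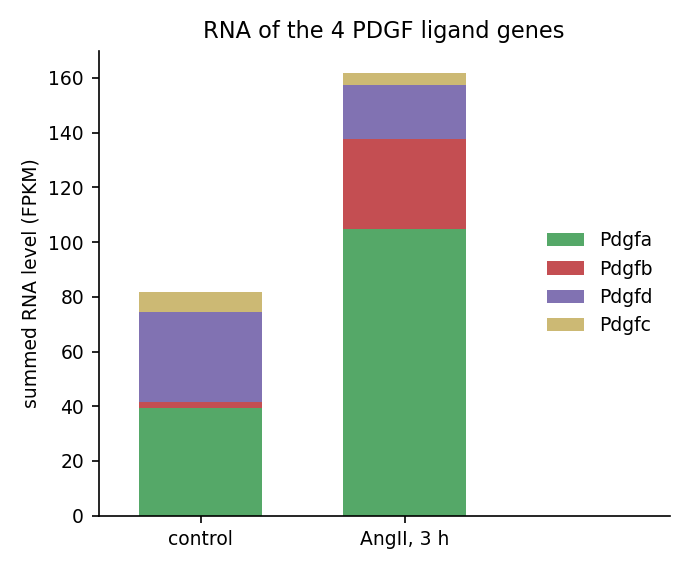
Summed FPKM of the 4 PDGF ligand genes in the control and the AngII library, stacked by gene from 0. The bar is 81.6 FPKM high in control and 162 FPKM high after AngII, and the Pdgfb part goes from 2.79% to 20.3% of it.

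The PDGF receptors had lower estimates after AngII, within their bounds. Pdgfrb (chromosome 18, 57014474 to 57053581), the receptor that defines mural cells, was the most abundant member in both libraries, at 179 FPKM in untreated cells (95.4 to 263) and 143 FPKM with AngII (77.1 to 208). Pdgfra (chromosome 14, 35369421 to 35418126), the receptor more typical of fibroblasts, stood at 7.80 FPKM (4.53 to 11.1) and 5.65 FPKM (3.25 to 8.04). Their log2 ratios were -0.33 and -0.41. Pdgfrb RNA was 23.0 times as abundant as Pdgfra RNA in control and 25.3 times after AngII. Fibroblast markers chosen for comparison summed to 189 FPKM in untreated cells and 146 FPKM with AngII over 6 matched genes. Each of the 6 had a lower estimate with overlapping bounds, and 69.9% of expressed symbols had log2 ratios below 0. Lum made up most of the marker sum, at 140 and 111 FPKM, Dcn stood at 0.758 and 0.525 FPKM and no fibroblast marker was at 0. Their part in the Pdgfra level was not tested, and in bulk RNA fewer cells of a type and less RNA per cell cannot be told apart.

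The VEGF ligands had nearly the same composition in both libraries. Vegfc (chromosome 16, 40624434 to 40739692), a lymphatic growth factor, was the most abundant, at 66.5 FPKM in untreated cells (38.9 to 94.1) and 54.3 FPKM with AngII (31.8 to 76.8). Vegfa (chromosome 9, 10520729 to 10536070), the main angiogenic factor, stood at 35.8 FPKM (30.0 to 41.7) and 28.5 FPKM (24.4 to 32.6). Vegfb (chromosome 1, 209657646 to 209661271) was low, at 2.32 and 1.56 FPKM. Vegfc made up 63.6% of the summed VEGF ligand RNA in control and 64.4% after AngII, and Vegfa 34.2% and 33.8%.

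Vegfa had the tightest bounds of the members, with a relative SD of 8.17% in control and 7.15% after AngII against 20.7% to 28.6% for the others. Even so its control and AngII bounds overlapped, the control lower bound being 0.920 times the AngII upper bound. The log2 ratios were -0.32 for Vegfa, -0.38 for Vegfb and -0.29 for Vegfc.

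Flt1 had the highest log2 ratio of the members, within 1 SD of that of Pdgfb. It stood at 3.01 FPKM in untreated cells (1.63 to 4.38) and 47.7 FPKM with AngII (27.3 to 68.0), a log2 ratio of 3.60 (SD 0.39), at chromosome 12, 7858091 to 8035966. The AngII lower bound was 6.24 times the control upper bound. The locus carries a single accession and 1 value per library, so the membrane receptor and shorter soluble forms of Flt1 were not separated. Of 10 endothelial markers chosen for comparison 7 were matched, and they summed to 3.54 FPKM in untreated cells and 3.25 FPKM with AngII. Of these Erg (2.21 and 2.12 FPKM) was the only one above 1 FPKM, Emcn and Tie1 were listed at 0 in both libraries, and Cdh5 and Pecam1 reached at most 0.0279 and 0.324 FPKM. Tek stood at 0.367 and 0.124 FPKM and Esam at 0.614 and 0.668 FPKM. The part of endothelial cells in the Flt1 level was not tested. Of 9 smooth muscle markers 8 were matched, Acta2 not among them. The 8 summed to 5679 and 5870 FPKM, most of it Tagln at 5103 and 5244 FPKM. Tagln, Cnn1 (228 and 315 FPKM), Myocd (8.81 and 18.3 FPKM) and Smtn (6.62 and 11.8 FPKM) had higher estimates after AngII. Actg2 (176 and 138 FPKM), Myh11 (96.5 and 84.7 FPKM), Lmod1 (53.2 and 51.4 FPKM) and Synpo2 (7.42 and 6.62 FPKM) had lower ones. All 8 had overlapping bounds. The listed interval of Myh11 holds 2 loci. The 6 leukocyte markers summed to 11.5 and 12.4 FPKM, most of it Cd14 at 5.46 and 6.77 FPKM and Cd74 at 5.51 and 5.04 FPKM. Cd68 stood at 0.309 and 0.452 FPKM and Csf1r at 0.178 and 0.146 FPKM. Ptprc and Itgam were listed at 0 in both libraries, and so was the 1 matched platelet marker, Pf4. The listed intervals of Itgam, Cd68 and Esam hold 58, 22 and 7 loci. The 5 pericyte markers summed to 18.3 and 25.6 FPKM. Of these Cspg4 was at 4.99 and 14.7 FPKM with bounds apart, and Rgs5 stood at 0.129 and 0.197 FPKM. The other markers of that list had lower estimates with overlapping bounds, Notch3 at 10.8 and 9.03 FPKM, Abcc9 at 1.85 and 1.55 FPKM and Kcnj8 at 0.561 and 0.119 FPKM. The listed intervals of Notch3 and Abcc9 hold 6 loci each. The part of the pericyte markers in the level of any member was not tested.

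The order of the members differed between the libraries at Flt1, Pdgfb and Pdgfa. In control Pdgfrb stood first with bounds apart from the next, Vegfc, and Vegfc, Pdgfa, Vegfa and Pdgfd followed, each overlapping its neighbour in bounds. A gap with bounds apart separated Pdgfd from Pdgfra, and Pdgfra, Pdgfc, Flt1, Vegfb and Pdgfb formed the low end, again with overlapping neighbours. After AngII Pdgfa stood ahead of Vegfc, at ranks 2 and 3 with overlapping bounds. Flt1 and Pdgfb were ranked 4 and 5, between Vegfc and Vegfa, and the only neighbours with bounds apart were Pdgfd and Pdgfra.

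Against all expressed symbols, 3 of the 10 members were at least 2-fold higher after AngII, where 3.89% of symbols were, and all 3 had bounds apart, as did 2.71% of symbols. None of the 10 was at least 2-fold lower, against 2.96% of symbols, and 1.58% with bounds apart. The other 7 members all had log2 ratios below 0, as did 69.9% of expressed symbols. The median log2 ratio was -0.32 over the members and -0.22 over all expressed symbols. Scaling AngII values by 1.21, so that the median expressed locus has a ratio of 0, moved the member median to -0.05 and left all 7 below 0, as 46.7% of expressed symbols then were, with Vegfc at -0.01 and Vegfa and Pdgfrb at -0.05. Flt1 and Pdgfb were then at 3.88 and 3.64, and Pdgfa at 1.67.

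**Figure D3:**
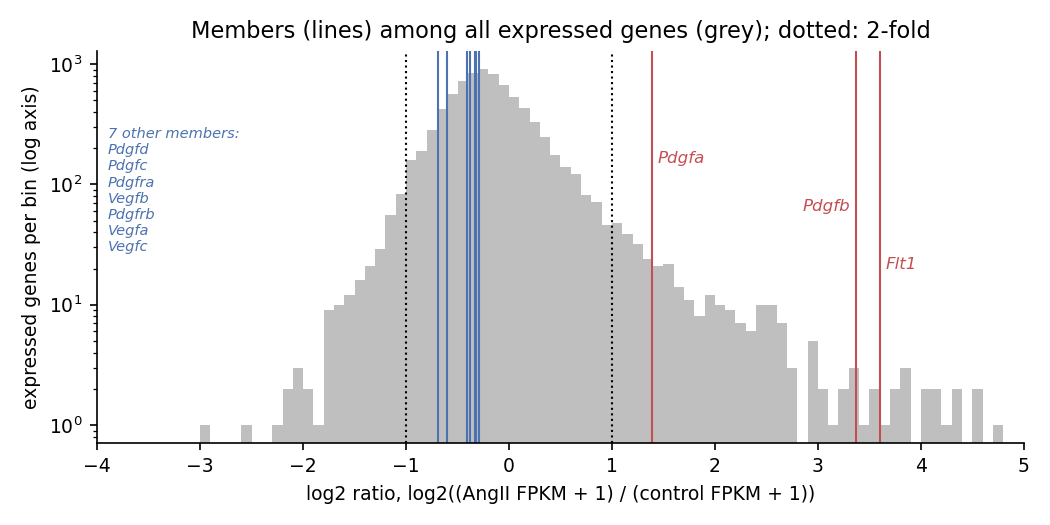
Histogram of the log2 ratio (AngII against control, FPKM + 1) over 8349 expressed symbols with a log axis for the number of symbols, and the 10 members as lines. Flt1, Pdgfb and Pdgfa lie right of the dotted 2-fold line; the other 7 lie between -0.69 and -0.29.

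The expressed genes with levels nearest to those of Flt1 over the 2 RNA libraries were found by Euclidean distance on log2(FPKM + 1). Nearest was Sgk1, a serum and glucocorticoid regulated kinase, at a distance of 0.10 (3.30 and 47.6 FPKM). The circadian gene Noct followed at 0.52 (1.92 and 39.8 FPKM) and Pdgfb itself at 0.60. Nearest to Pdgfrb were Rcn2, a calcium-binding protein of the endoplasmic reticulum, at 0.022 (179 and 145 FPKM), the spliceosome protein gene Snrpd2 at 0.023, whose interval is shared by 30 loci, and the ribosomal protein gene Rps20 at 0.031.

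In the lists of other genes of these pathways 4 genes were at least 2-fold higher after AngII and 0 lower. The lists held 6, 20, 6 and 6 expressed genes. Over all expressed symbols 3.89% were at least 2-fold higher and 2.96% at least 2-fold lower. Of 7 matched receptors and ligands outside the members, 6 were expressed and 1 was at least 2-fold higher: Pgf, which encodes placenta growth factor, a ligand of Flt1, at 4.74 FPKM in untreated cells (2.42 to 7.06) and 12.8 FPKM with AngII (7.18 to 18.4). Its bounds were apart and its log2 ratio was 1.26. With a pseudocount of 5 the count of higher genes in this list was 0. Nrp1, a coreceptor for VEGF and PDGF ligands, stood at 51.8 and 33.0 FPKM (-0.63), and Pdgfrl, a receptor-like secreted protein, at 28.0 and 18.6 FPKM (-0.56), both with overlapping bounds. Of the 6, 3 had log2 ratios above 0 and 3 below, where 69.9% of expressed symbols were below 0. Flt4, the receptor for VEGF-C, was below the minimum, at 0.159 and 0.554 FPKM. Kdr had no matched locus and was not analysed here.

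Among 20 matched adaptors and enzymes that act on activated receptors, 2 were at least 2-fold higher and 0 lower. Ptpn1, a phosphatase that removes phosphate from PDGF receptors, stood at 21.5 FPKM (12.4 to 30.7) and 52.4 FPKM (30.7 to 74.2), with bounds just apart. Rasa1, the Ras GTPase-activating protein that docks on receptor beta, stood at 17.8 and 39.8 FPKM with overlapping bounds, and the adaptor Crk at 64.6 and 89.1 FPKM. The interval of Crk is shared by 4 loci. The median of this list was -0.09 as deposited and 0.18 under centring, with 7 of 20 genes above 0 as deposited and 18 under centring. Of all 8349 expressed symbols, 2509 were above 0 as deposited and 4451 under centring. With a pseudocount of 5, 1 gene of it was at least 2-fold higher, and under centring 2 had bounds apart.

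Of 12 genes of ligand processing and binding 7 were matched, and Adamts3, Ccbe1, Pcsk5, Plaur and Thbs1 had no matched locus. Among the 7, 6 were expressed, 1 was at least 2-fold higher and 0 lower. The higher gene was Plat, the tissue plasminogen activator, which cleaves the CUB domain of PDGF-C. It stood at 11.1 FPKM (6.32 to 15.9) and 46.9 FPKM (27.4 to 66.4), with bounds apart and a log2 ratio of 1.98. Plau, the urokinase that acts on PDGF-D, stood at 0.438 and 1.22 FPKM with overlapping bounds. The protease Furin, which trims PDGF and VEGF-C precursors, stood at 17.7 and 24.9 FPKM, a log2 ratio of 0.47 with overlapping bounds. The median of the list was 0.40 as deposited and 0.66 under centring, and with a pseudocount of 0.1 the count of higher genes was 2. Genes of oxygen sensing, which acts on Vegfa transcription, had 0 of 6 expressed members past 2-fold. Egln3, an oxygen-sensing hydroxylase, stood at 9.97 and 6.07 FPKM (-0.63), Arnt, the partner of hypoxia-inducible factors, at -0.20 and the hydroxylase Hif1an at -0.12. The listed intervals of Arnt and Hif1an hold 25 and 11 loci. The medians of the oxygen list and of the other receptors and ligands were -0.12 and -0.10 as deposited and 0.13 for both under centring. With no FPKM minimum the median of the other receptors and ligands was 0.34.

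**Figure D4:**
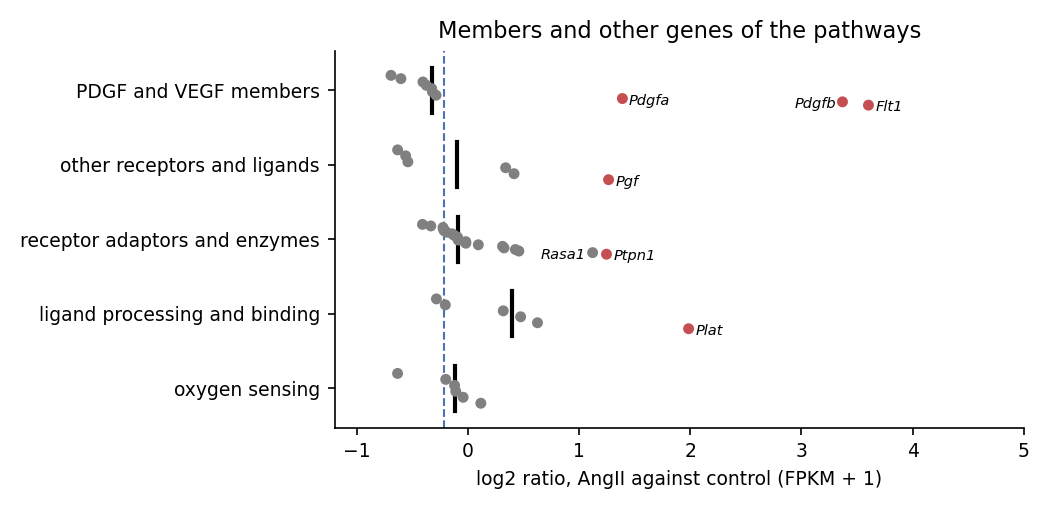
Log2 ratio (AngII against control, FPKM + 1) of each expressed gene, for the members and the 4 pathway lists; red points have bounds apart, black bars are list medians and the dashed line is the median of all expressed symbols at -0.22. Plat, Pgf and Ptpn1 lie right of 1 with bounds apart, beside Flt1, Pdgfb and Pdgfa.

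H3K4me3 was present at all 10 members in both conditions, within 1 kb of the locus, as at 95.9% of expressed symbols (96.3% in control and 96.3% with AngII). Regions are the authors', and so is the unlabelled value that was taken as their score. At Flt1 the region over the lower end of the locus was 4.59 kb wide in control and 7.52 kb after AngII, and it reached 2.46 kb and 5.68 kb into the locus. Its score lay at percentile 91.6 of the control list and 90.4 of the AngII list. At Pdgfb, by contrast, the region over the upper end had nearly the same width, 5.20 kb and 5.12 kb, with scores at percentile 67.1 of the control list and 81.7 of the AngII list. At Pdgfa a region of 10.4 kb in control and 11.8 kb after AngII covered the lower end.

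Pdgfrb carried the widest H3K4me3 region of the members, 19.7 kb in control and 20.5 kb after AngII, at width percentile 99.3 of each list. These regions covered 47.9% of the Pdgfrb locus in control, and with a further region of 5.44 kb 62.1% after AngII. That further region had a score at percentile 0.453 of its list. Pdgfd had the narrowest main region, 1.84 kb and 1.76 kb, at score percentile 94.2 and 84.3. At Vegfa the region was 7.50 kb and 8.32 kb wide, at Vegfc 5.20 kb and 7.36 kb, at Pdgfra 7.65 kb and 5.76 kb and at Pdgfc 5.81 kb and 5.60 kb. The region at Vegfb, 14.4 kb and 11.7 kb, reached 10.9 kb and 9.91 kb past the locus over the neighbouring genes Dnajc4 and Nudt22 and into the interval of Trpt1, so it cannot be assigned to Vegfb.

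An H3K36me3 region touched 9 of the 10 members in control and all 10 with AngII, against 95.6% and 97.5% of expressed symbols. Cover was complete at 5 members in control and 7 with AngII, against 49.6% and 50.6% of symbols. H3K36me3 cover differed by more than 20 points of the locus length at 3 members. At Pdgfb no region touched the locus in control, the nearest lying 7.34 kb away, and after AngII 1 region of 47.1 kb covered all of it. That region touched no other listed locus. A step from 0% to 100% cover was found at 0.91% of expressed symbols. The region's score lay at percentile 43.6 of the AngII list, and when only regions with a score above the list median were kept Pdgfb had no cover in either condition. At Flt1, 73.6% of the locus lay under 3 regions in control and 100% under 1 region after AngII. This region was 328 kb wide, touched 8 listed loci and ran 148 kb past the upper end of Flt1. With regions above the median score alone, the Flt1 difference was 100 points in place of 26.4.

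Cover at Pdgfc went the other way, from 68.7% in 6 regions in control to 17.8% in 4 regions after AngII, a difference of -50.9 points. With regions above the median score alone that difference was 1.25 points. Cover was higher by over 20 points at 7.77% of expressed symbols and lower by over 20 points at 2.04%. At Pdgfa, Pdgfrb, Vegfa, Vegfb and Vegfc cover was 100% in both conditions, as at 40.6% of expressed symbols, and at Pdgfra it was 95.3% and 97.2%. The regions over Vegfb were 61.8 kb and 64.7 kb wide and ran past both ends of the 3.6 kb locus. Their cover therefore cannot be assigned to Vegfb. At Pdgfd cover was 76.7% and 76.8%, and -76.7 points apart with regions above the median score alone. The Pdgfd interval is also listed for Ddi1, so its marks may belong to either. Ddi1 stood at 2.68 FPKM in untreated cells (1.27 to 4.09) and 0.410 FPKM with AngII (0.117 to 0.703). Its bounds were apart and its log2 ratio was -1.38.

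**Figure D5:**
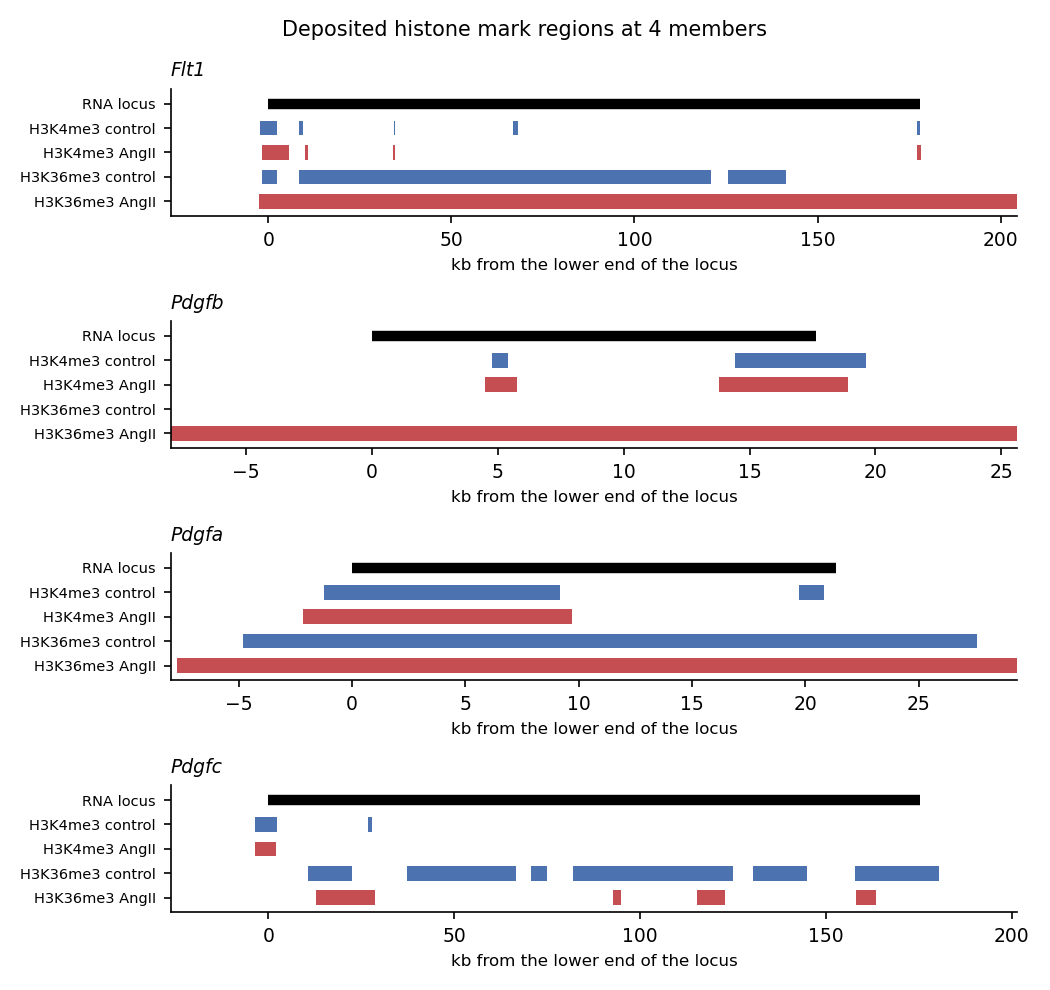
Deposited H3K4me3 and H3K36me3 regions of control (blue) and AngII (red) along the RNA loci (black) of Flt1, Pdgfb, Pdgfa and Pdgfc, in kb from the lower end of each locus; bars that meet the edge run on beyond it. H3K36me3 covers none of Pdgfb in control and all of it after AngII, and 68.7% and 17.8% of Pdgfc.

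Smaller loci within 10 kb of several members carried further RNA. Past the upper end of Pdgfa, 1.47 to 6.32 kb away, lay 4 loci, 1 of them with the accession of Pdgfa itself, at 0.937 FPKM in untreated cells (0.254 to 1.62) and 2.94 FPKM with AngII (1.20 to 4.69). The unnamed XLOC_007286 stood at 1.04 and 3.53 FPKM, XLOC_007287 at 0.746 and 1.63 FPKM and XLOC_007288 at 0.191 and 0.454 FPKM. All 4 had higher estimates after AngII and overlapping bounds. Below Pdgfa, 1.91 kb away, the more abundant XLOC_007284 stood at 7.63 and 6.61 FPKM, also with overlapping bounds. The unnamed XLOC_027973, 9.40 kb past the upper end of Pdgfd, stood at 0.679 FPKM in untreated cells (0.180 to 1.18). It was listed at 0 with AngII, with bounds of 0, so its bounds were apart. Below Vegfc, 2 loci with its accession stood at 2.03 and 0.813 FPKM and at 0.633 and 0.410 FPKM. Both of these had overlapping bounds. With these pieces added to their genes, the log2 ratios of Pdgfa and Vegfc were 1.40 and -0.31.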

How the data were processed

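RNA-seq, H3K4me3 and H3K36me3 ChIP-seq libraries of control and AngII-treated cells were grouped by sample title; 8 samples were listed, of which 6 had files and the 2 inputs were not analysed here. The RNA table gives FPKM deposited by the authors with bounds, for both conditions. The submitters' processing notes list TopHat, Cufflinks, Cuffdiff and build rn4. The table came with each RNA sample in the same form, byte for byte, and was read once. Of 30937 loci, 15 had no usable estimate. Sequencing depth was unknown; at FPKM of 10 or more the bounds imply a median relative SD of 21.0% in control and 21.1% after AngII. The region lists have no header: the value deposited by the authors in the fifth column was taken as a score of each region, and how it was made is not stated. All score percentiles and the score filter rest on that reading. The submitters' processing notes list Bowtie; for the caller of regions, a name was not given in the sources used here. Bins are 153 bp and 160 bp for H3K4me3 and 589 bp and 548 bp for H3K36me3 (control and AngII), so small differences in width carry no weight. Scores were only ranked within a list.

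Accessions were paired with symbols through a RefSeq table of GRCr8, which served to name genes: of 20869 loci carrying accessions, 77.8% could be paired. Coordinates are those of the files; region coordinates are counted from 1. Python 3.11.15, numpy and pandas were used, and the summaries were tested on simulated data. A gene was called higher or lower at 2-fold on the log2(FPKM + 1) scale. Pathway lists name the 3 expressed genes with the largest absolute log2 ratio; Flt4 and the markers named were chosen after their values were seen, and 1 gene of the ligand processing list is not reported here and was left out of its counts. The genes nearest in level were named for the member with the largest ratio and the one with the highest level, 3 each. Members, lists, the threshold of 20 points and alternatives were chosen with earlier results of these data known. A planned comparison of protein sequences was not made. Alternatives were other pseudocounts, 2 scalings, summed loci, no FPKM minimum, a 1.5-fold threshold, other windows and a score filter.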

Additional observations from a re-analysis of the deposited data

Results flagged for a closer look

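The unnamed locus XLOC_007256, which lies 0.484 kb below the lower end of Flt1 and is 300 bp long, was listed at 0 in control and at 2.89 FPKM after AngII (bounds 0.507 to 5.28). It was picked out because it is no member and its AngII lower bound lies above its control level. Its control bounds were also 0, so any AngII lower bound above 0 would have met this rule. The rule took higher loci only, so XLOC_027973 near Pdgfd, lower with bounds apart, was not picked. A second unnamed locus, XLOC_007255, 1.28 kb below Flt1, stood at 0.0548 and 0.707 FPKM with overlapping bounds. XLOC_007256 lies under the H3K4me3 region that covers the lower end of Flt1 in both conditions, and whether its RNA is separate from that of Flt1 was not tested.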

How the results depend on the processing

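The count of 3 higher members, all with bounds apart, was unchanged with pseudocounts of 0.1 and 5, both scalings, summed loci, no FPKM minimum and a 1.5-fold threshold. The count of lower members was 0 under these settings except the 1.5-fold threshold, which gave 2 (Pdgfc and Pdgfd). The member median was -0.049 when centred on the median expressed locus, against -0.32 as reported. No member's log2 ratio changed sign. Pdgfb was at 3.79 with a pseudocount of 0.1 and at 2.38 with 5, and Flt1 at 2.72 with 5. All 10 members had H3K4me3 in both conditions under each window and with scores above the list median. H3K36me3 was less stable: with scores above the median the Pdgfc difference was 1.25 points against -50.9, and Pdgfb was at 0 in both conditions; the cause was not tested. No paired analysis was possible because a condition had 1 library per assay, and leaving one out would have left nothing to compare. Counting intervals were not given, as depth is unknown.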
